A study of Mus musculus with 16 samples.

Results

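The 10 genes of the Notch pathway described here were followed through the deposited histone mark and SETD5 lists: the receptors Notch1 and Notch2, the ligands Dll1, Dll3 and Jag1, the DNA-binding effector Rbpj, and the Hes/Hey group Hes1, Hes5, Hes6 and Hey1. They were chosen by name, and all 10 were found among the 21887 protein-coding genes that RefSeq annotates on GRCm38. The study profiled neural stem cells grown from the telencephalic cortex of mouse embryos at E14.5, kept as floating neurospheres with bFGF and EGF and plated on Matrigel before fixation. Chromatin immunoprecipitation with sequencing (ChIP-seq) was done in Setd5+/- cells, which carry 1 mutant copy of the gene for the SET-domain protein SETD5, and in wild-type cells. Both genotypes were profiled for H3K4me3, H3K27ac, H3K4me1, H3K27me3, H3K36me2 and H3K36me3, and a V5-tagged SETD5 was profiled in wild-type cells. There was 1 library per mark and genotype, so no difference below has a replicate check and no test could be made. The nature of the Setd5 mutation and of the V5 tag, and whether a culture came from 1 embryo or several, are not stated in the labels, and no V5 library from cells without the tag was analysed here.

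In the Notch pathway a ligand of the Delta or Jagged family on 1 cell binds a Notch receptor on its neighbour, the receptor is cleaved, and its intracellular domain enters the nucleus and joins the DNA-binding protein RBPJ. The complex turns on Hes and Hey genes, whose products repress proneural genes, and in the embryonic cortex this keeps radial glia and neural stem cells from differentiating, while ligand-expressing neighbours go on to become neurons. H3K4me3 marks promoters, H3K27ac marks active promoters and enhancers, H3K4me1 marks enhancers and promoter flanks, H3K27me3 is the Polycomb repressive mark, and H3K36me3 is laid down along transcribed gene bodies, while H3K36me2 lies over broad domains.

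The files list islands, which are stretches of the genome called enriched in 1 library, each with a whole number read here as its count of reads. An island missing from a list does not mean that there were no reads, since stretches that were not called are not listed. For each gene a window was taken from 10 kb before to 10 kb after its span, and the covered length in kb and the reads inside islands were summed. RPM denotes reads scaled to 1000000 island reads of the same library, and intervals are exact Poisson 95% intervals that cover counting error only. Libraries held between 1019278 and 5093126 island reads. In a culture of many cells, fewer cells with a mark and less of the mark per cell cannot be told apart.

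The labelled cell type was checked at its own genes. Of 10 genes typical of neural stem cells or radial glia, 8 in Setd5+/- cells and 8 in wild-type cells carried H3K4me3 within 1 kb of the start, Nes, Sox2, Fabp7, Vim and the members Hes1 and Hes5 among them, while Pax6 and Msi1 had no such island in either genotype. Of 8 neuronal genes, 4 and 4 carried H3K4me3, 1 and 1 carried H3K27ac (Map2), and 3 and 4 carried H3K27me3. H3K4me3 also lay at 1 and 2 of 4 astrocyte genes, at 1 and 1 of 4 oligodendrocyte genes (Mbp) and at 2 and 2 of 4 endothelium and mesenchyme genes (Kdr and Col1a1), with no H3K27ac at the last 2 groups. None of the 4 microglia and blood genes carried H3K4me3 in either genotype. Chromosomes 1, 4 and 15 stood apart from the 16 other autosomes. Of genes with H3K36me2, 96.3%, 73.6% and 83.6% on these 3 chromosomes were at least 2-fold longer covered in Setd5+/- cells or marked there alone, against 19.9% on the 16 other autosomes. Hes6 lies on chromosome 1 and Hes5 on chromosome 4. The other 8 members lie on the 16 other autosomes.

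RefSeq promoter sequences of GRCm38.p6, from 250 bases before the start to 50 after it, were at hand for 8 of the 10 members in 11 windows, and Hes1 and Hey1 had none. A pair of motifs was searched on both strands: TGGGAA, the core of the site that RBPJ binds, and the N-box CACNAG, to which Hes repressors bind. The RBPJ core occurred in 3 windows of 2 genes, Hes5 and Rbpj, and in 25.6% of all 32851 promoters. The N-box occurred in 4 windows of 4 genes, Notch1, Notch2, Dll1 and Hes6, and in 42.5% of all promoters, and no match of one motif overlapped the other. The 2 genes with the RBPJ core are shown first, followed by the 3 ligands, whose starts carried different sets of marks, and by Hes6, the member with the largest H3K27ac ratio. All are written 5′ to 3′ on the gene's own strand, with the RBPJ core in capitals.
Hes5, plus strand, chr4:154960673-154960972: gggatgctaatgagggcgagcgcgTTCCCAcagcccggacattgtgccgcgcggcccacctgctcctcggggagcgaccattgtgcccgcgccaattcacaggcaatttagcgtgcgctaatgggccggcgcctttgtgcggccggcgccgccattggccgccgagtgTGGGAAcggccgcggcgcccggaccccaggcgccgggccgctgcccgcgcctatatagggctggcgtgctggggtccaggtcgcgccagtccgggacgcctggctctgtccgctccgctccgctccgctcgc
Rbpj, plus strand, chr5:53590096-53590395: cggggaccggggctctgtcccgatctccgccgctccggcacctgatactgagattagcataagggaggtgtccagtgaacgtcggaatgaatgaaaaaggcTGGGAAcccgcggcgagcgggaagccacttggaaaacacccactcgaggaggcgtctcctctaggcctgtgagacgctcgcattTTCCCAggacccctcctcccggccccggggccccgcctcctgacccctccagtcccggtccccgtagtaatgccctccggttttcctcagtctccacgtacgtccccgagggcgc
Dll1, minus strand, chr17:15376883-15377182: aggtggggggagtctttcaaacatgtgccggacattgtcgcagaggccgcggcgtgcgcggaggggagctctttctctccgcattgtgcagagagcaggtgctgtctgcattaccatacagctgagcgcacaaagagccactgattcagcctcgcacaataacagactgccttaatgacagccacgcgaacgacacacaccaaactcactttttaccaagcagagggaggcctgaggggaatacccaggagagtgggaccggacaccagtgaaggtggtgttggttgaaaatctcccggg
Dll3, minus strand, chr7:28301736-28302035: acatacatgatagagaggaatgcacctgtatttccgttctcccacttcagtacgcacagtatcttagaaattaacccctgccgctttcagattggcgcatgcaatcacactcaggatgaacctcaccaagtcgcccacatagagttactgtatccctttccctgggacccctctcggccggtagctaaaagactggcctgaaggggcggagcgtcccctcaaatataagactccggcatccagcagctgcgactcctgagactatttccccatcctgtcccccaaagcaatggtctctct
Jag1, minus strand, chr2:137116471-137116770: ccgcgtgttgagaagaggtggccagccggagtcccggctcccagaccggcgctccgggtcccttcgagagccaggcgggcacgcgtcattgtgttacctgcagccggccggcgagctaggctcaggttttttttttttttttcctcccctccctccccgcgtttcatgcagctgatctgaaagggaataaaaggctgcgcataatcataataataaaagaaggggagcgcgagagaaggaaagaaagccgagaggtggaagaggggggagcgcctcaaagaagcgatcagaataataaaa
Hes6, minus strand, chr1:91413989-91414288: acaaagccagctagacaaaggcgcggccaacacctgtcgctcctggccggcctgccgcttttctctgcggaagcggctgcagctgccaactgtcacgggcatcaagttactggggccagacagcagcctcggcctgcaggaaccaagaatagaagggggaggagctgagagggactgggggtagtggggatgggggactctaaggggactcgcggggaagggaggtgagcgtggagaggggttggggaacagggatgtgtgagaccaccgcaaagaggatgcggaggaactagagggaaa
In the Hes5 promoter the 2 copies of the core start at −226 and −82 from the start, on opposite strands. In the Rbpj promoter they start at −149 and −65, again on opposite strands. The Hes5 window is rich in CG, with 41 CG dinucleotides against a median of 7.0 over all promoters and more than in 96.5% of them. The Dll3 window has 11, the fewest among the members. A motif match is a description of the letters and says nothing of binding in these cells.

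All 10 members had H3K4me3 in their window in Setd5+/- and in wild-type cells, where 69.1% and 70.2% of all genes did. H3K27ac lay in 9 windows in Setd5+/- cells and 9 in wild-type cells, beside 48.9% and 51.1% of all genes, and Jag1 was without it in both. H3K4me1 lay in 9 and 10 windows, beside 40.1% and 57.4%, and the window without it was that of Dll3 in Setd5+/- cells. H3K27me3 lay in 1 and 2 of the 10 windows, near the 17.8% and 20% of all genes. H3K36me2 lay in 1 and 1 window beside 6.62% and 5.72%, and H3K36me3 in 8 and 8 windows beside 45.8% and 44.5%, with none at Hes1 and Hey1. SETD5-V5 lay in 4 windows, beside 29.7% of all genes.

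**Figure D1:**
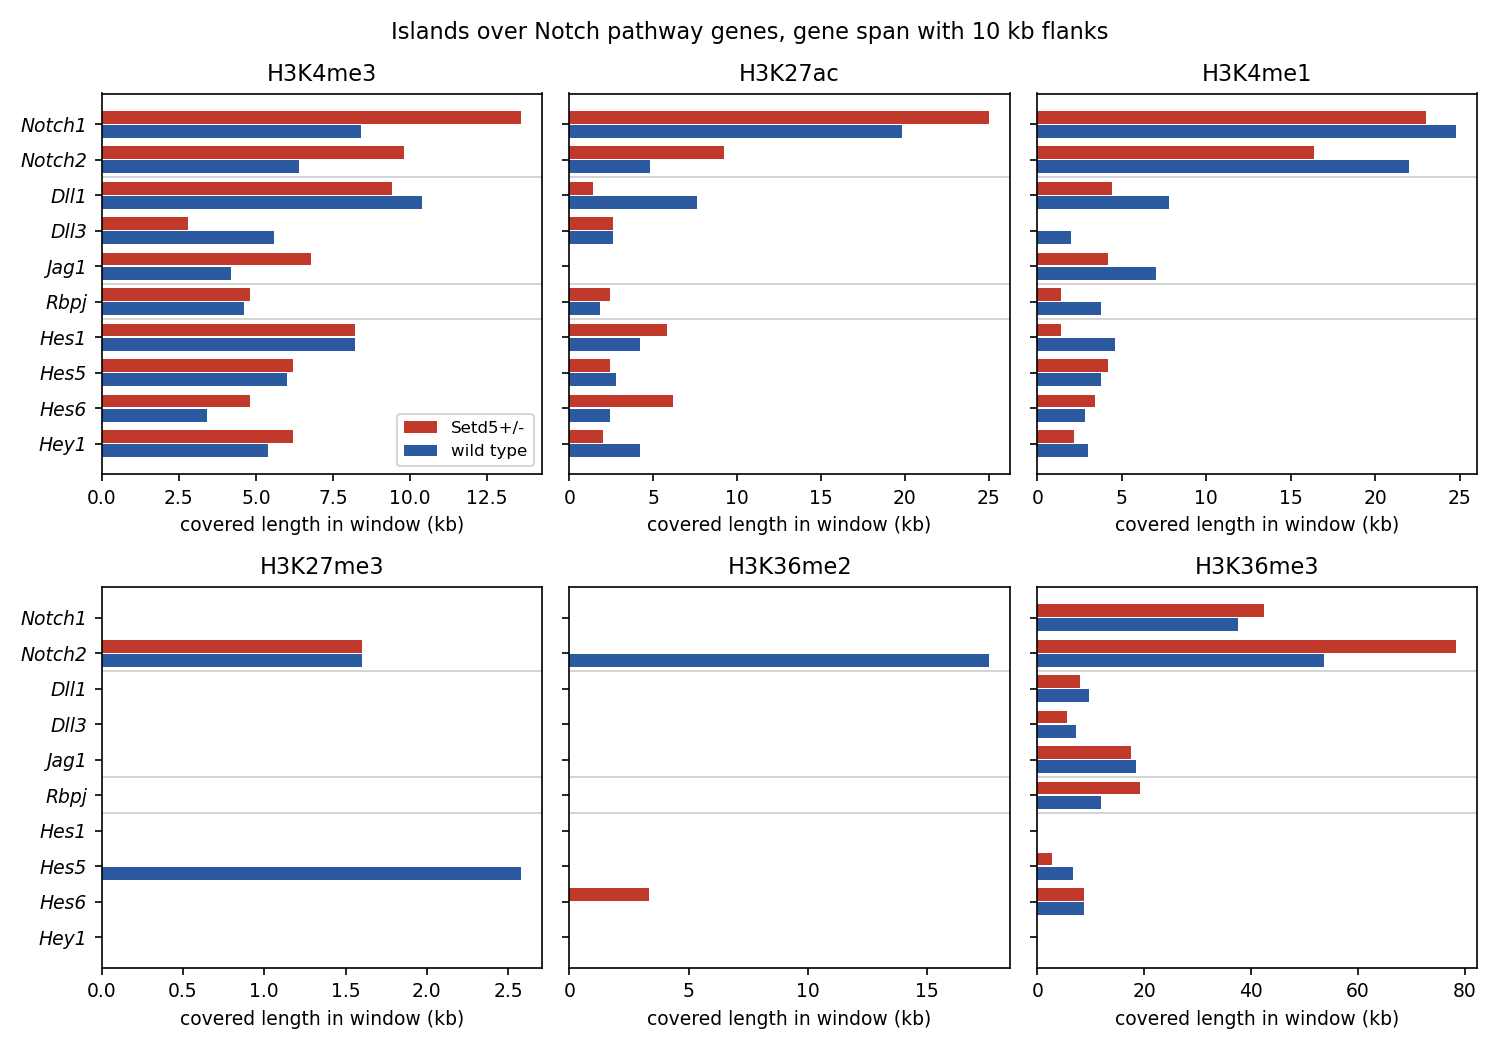
Covered length of each of the 6 histone marks in the 10 windows, in kb, with Setd5+/- bars above wild-type bars and genes ordered from receptors to Hes/Hey genes. H3K4me3 is present in all 10 windows in both genotypes, while the Dll1 window has 1.4 kb of H3K27ac in Setd5+/- cells and 7.6 kb in wild-type cells.

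At the start itself, taken as an island within 1 kb of an annotated start, H3K4me3 was found at all 10 members in both genotypes, where 58.6% and 60.2% of all genes had it. For Hes1 and Hey1, whose strand the tables used do not give, either gene end was allowed. H3K27ac was found at 8 starts in Setd5+/- cells and 9 in wild-type cells, beside 35.9% and 37.9% of all genes. Dll1 had it at its start in wild-type cells alone. H3K4me1 was found at 5 and 9 starts, beside 16.6% and 34.8%, so the members and the whole list were both lower in Setd5+/- cells. No member start carried H3K27me3 in either genotype. Of all genes with H3K4me3 at the start, 5.11% in Setd5+/- cells and 7.73% in wild-type cells also carried H3K27me3 there. With 10 members, this does not set them apart from all genes.

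Most of the H3K4me3 islands at these starts were long. The Dll1 start island was 7.8 kb long in Setd5+/- cells and 7.6 kb in wild-type cells, longer than 99.6% and 99.6% of all H3K4me3 islands of the library. The Notch1 start island was 7.0 and 6.2 kb, longer than 99.4% and 99.1%. The Hes1 island was 6.0 and 7.6 kb, longer than 98.8% and 99.6%. Hes5, Hey1, Jag1 and Rbpj also had islands longer than 95.3% of their list or more in both genotypes. At Hes6 the island was 4.8 kb in Setd5+/- cells, longer than 97.0%, and 3.4 kb in wild-type cells, longer than 89.6%. Shorter ones lay at Notch2, with 2.8 and 2.4 kb, and at Dll3, with 0.8 and 2.2 kb. The Dll3 island in Setd5+/- cells was longer than 4.27% of the list, against 65.5% in wild-type cells.

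Notch1, one of the main receptors of cortical progenitors, was among the longest covered members for every active mark. H3K4me3 covered 13.6 kb in Setd5+/- cells and 8.4 kb in wild-type cells, with 1033 and 951 reads, or 203 and 204 RPM. The start island held 852 reads in Setd5+/- cells (95% interval 796 to 911) and 884 reads in wild-type cells (827 to 944). The added length in Setd5+/- cells came from inside the gene, where an island of 3.6 kb with 109 reads faced 2 wild-type islands of 1.0 and 1.2 kb with 38 and 29 reads, and an island of 3.0 kb with 72 reads had no wild-type counterpart. H3K27ac covered 25.0 kb in Setd5+/- cells and 19.8 kb in wild-type cells, with 598 and 552 RPM. H3K4me1 covered 23.0 and 24.8 kb, with 490 and 454 RPM. At Notch1 the covered length differed more than the RPM for H3K4me3 and H3K27ac, and for H3K4me1 the length was lower and the RPM higher in Setd5+/- cells.

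Notch2 encodes the other receptor followed here. H3K4me3 covered 9.8 kb in Setd5+/- cells and 6.4 kb in wild-type cells, and H3K27ac covered 9.2 and 4.8 kb, with 177 and 133 reads. The H3K27ac ratio of 1.92 lay just short of the 2-fold threshold used below. In both genotypes H3K27ac lay at the start and in another island inside the gene, from 10.7 to 15.1 kb after the start in Setd5+/- cells and from 10.7 to 13.7 kb in wild-type cells, where H3K4me3 and H3K4me1 islands also lay. A further H3K27ac island, of 2.0 kb and 37 reads (26.1 to 51.0), began 49.5 kb after the start and was called in Setd5+/- cells alone. H3K4me1 was shorter in Setd5+/- cells, with 16.4 kb against 22.0 kb in wild-type cells. Each genotype had 1 short H3K27me3 island inside Notch2, of 1.6 kb in both, with 30 and 39 reads, but at different places, 93.7 kb after the start in Setd5+/- cells and 30.5 kb after it in wild-type cells. A wild-type H3K36me2 island of 17.6 kb and 265 reads (234 to 299) lay from 7.26 to 24.9 kb after the start, and no H3K36me2 island was called in the window in Setd5+/- cells.

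**Figure D2:**
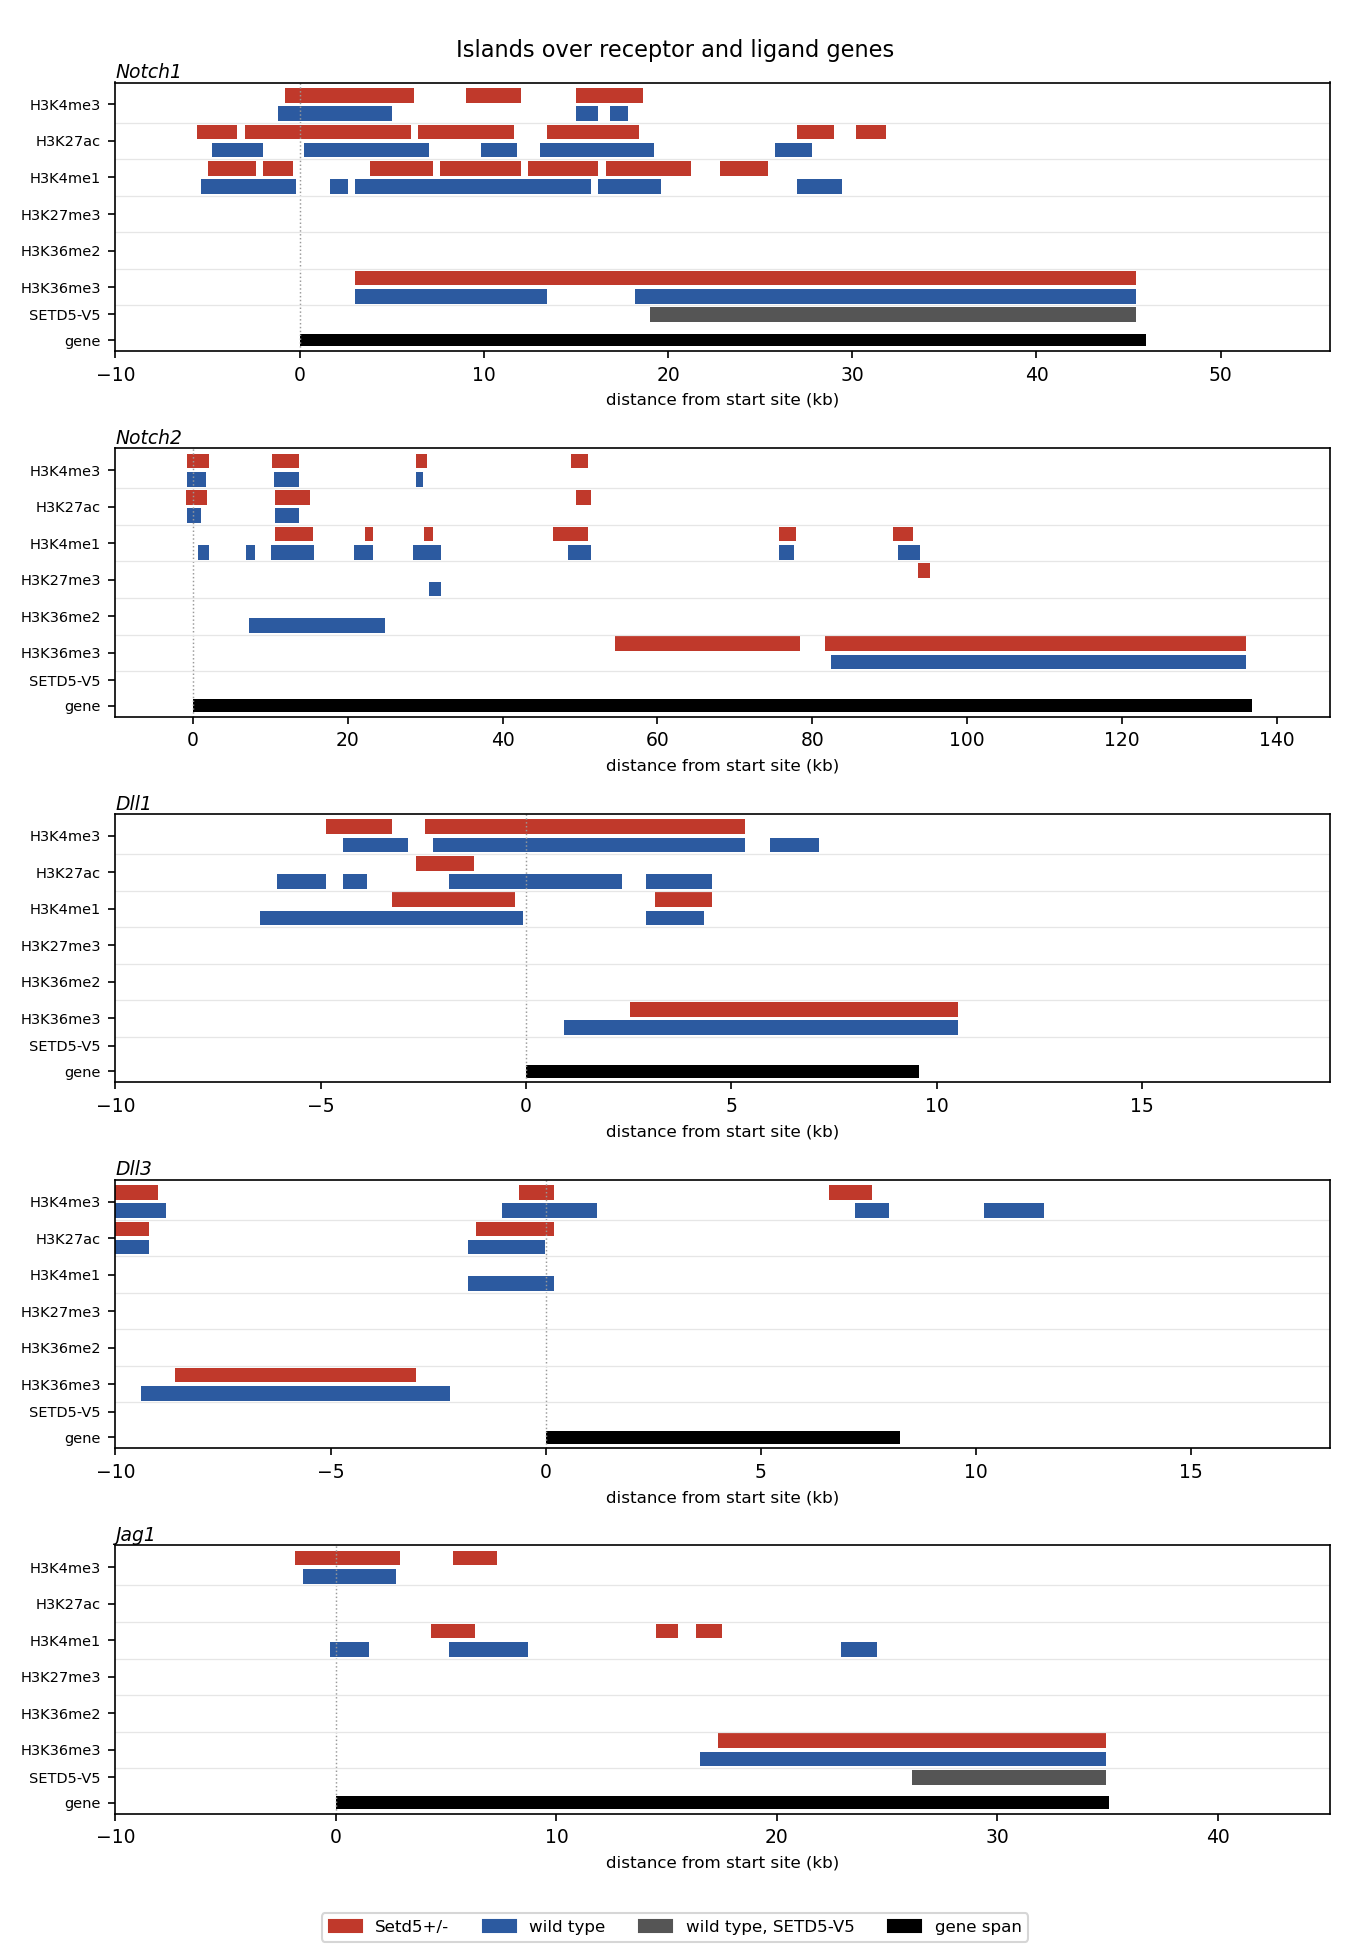
Islands around Notch1, Notch2, Dll1, Dll3 and Jag1, drawn by distance from the start in kb in the direction of transcription, with a row for each mark and the Setd5+/- row above the wild-type row. At Dll1 the Setd5+/- H3K27ac row holds 1 island, from −2.67 to −1.27 kb, and the wild-type row holds 4, of which the longest runs across the start.

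Dll1 encodes a Delta ligand that is expressed by differentiating progenitors. Its H3K27ac covered 1.4 kb in Setd5+/- cells and 7.6 kb in wild-type cells. In Setd5+/- cells there was 1 island, at chr17:15378201-15379600, with 32 reads (21.9 to 45.2). In wild-type cells there were 4, with 48, 162, 22 and 37 reads, and the one of 162 reads (138 to 189), at chr17:15374601-15378800, ran across both annotated starts and held the whole promoter shown above. The Setd5+/- island lay upstream of that promoter, and 7.89% of the wild-type H3K27ac length remained covered, against 62.1% over the whole list. In RPM the window held 31.4 in Setd5+/- cells and 236 in wild-type cells, a log2 ratio of −2.91, or −2.67 relative to the median gene of the 16 other autosomes. The H3K4me3 of Dll1 differed less, with 9.4 kb in Setd5+/- cells and 10.4 kb in wild-type cells, and 845 and 1043 reads in the start island. H3K4me1 covered 4.4 and 7.8 kb. Islands of the Setd5+/- H3K27ac list were thinner as a whole, with a median of 22.4 reads per kb against 29.4 in wild-type cells, and the part of this in the Dll1 difference was not tested.

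Dll3 encodes a divergent Delta protein that acts inside the cell. H3K4me3 covered 2.79 kb of its window in Setd5+/- cells and 5.58 kb in wild-type cells, a ratio of 0.499 that only just met the threshold. The island at the start was 0.8 kb with 44 reads (32.0 to 59.1) in Setd5+/- cells and 2.2 kb with 172 reads (147 to 200) in wild-type cells, and both held the whole promoter shown above. At the neighbouring gene Timm50, which encodes a mitochondrial import protein, the island held 313 reads in Setd5+/- cells and 285 in wild-type cells. A wild-type island of 1.4 kb and 86 reads over Selenov, the neighbour on the other side, had no Setd5+/- partner. It lay outside Dll3 but made up 1.4 kb of the difference of the window, and the call was lost with no flank. H3K27ac covered 2.58 and 2.58 kb, with 32 reads in Setd5+/- cells and 46 reads in wild-type cells in the island next to the start. H3K4me1 was called in wild-type cells alone, as 1 island of 2.0 kb and 57 reads over the start.

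Jag1 encodes a ligand of the Jagged family. It carried a long H3K4me3 island over its start, of 4.8 kb and 611 reads (564 to 661) in Setd5+/- cells and 4.2 kb and 527 reads (483 to 574) in wild-type cells, and it carried no H3K27ac island in either genotype. Among all genes with H3K4me3 at the start, 39.4% in Setd5+/- cells and 37.5% in wild-type cells had no H3K27ac there. A second H3K4me3 island, of 2.0 kb and 52 reads, lay from 5.32 to 7.32 kb inside the gene in Setd5+/- cells alone. H3K4me1 covered 4.2 and 7.0 kb, and the wild-type island over the start, with 39 reads (27.7 to 53.3), was not called in Setd5+/- cells.

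Rbpj encodes the DNA-binding protein through which all Notch receptors act on their targets. Its H3K4me3 was nearly the same in both genotypes, with 4.8 kb and 534 reads in Setd5+/- cells and 4.6 kb and 522 reads in wild-type cells, in 1 island that held the promoter with 2 RBPJ cores. H3K27ac covered 2.4 and 1.8 kb, with 34 and 51 reads. The Setd5+/- island lay on the downstream side, from 0.255 to 2.65 kb after the start, and the wild-type islands lay on both sides. H3K4me1 covered 1.4 and 3.8 kb, with 31 and 98 reads, and the wild-type island 1.26 kb after the start had no Setd5+/- partner. The sign of this H3K4me1 difference turned to 1.4 kb more in Setd5+/- cells when both lists were set to equal covered length.

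Hes1, the repressor gene that answers Notch in neural stem cells, had 8.2 kb of H3K4me3 in Setd5+/- cells and 8.2 kb in wild-type cells, with 1001 and 997 reads. Its H3K27ac covered 5.8 and 4.2 kb, with 126 and 130 RPM, as 1 island in Setd5+/- cells and as 2 in wild-type cells. The whole gene lay inside H3K27ac in Setd5+/- cells, and 75.4% of it in wild-type cells. H3K4me1 covered 1.4 kb in Setd5+/- cells and 4.6 kb in wild-type cells. The missing stretch was a wild-type island of 2.6 kb and 83 reads (66.1 to 103) at one gene end.

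Hes5, the other main target gene of cortical progenitors, was also steady for H3K4me3, with 6.2 kb and 580 reads (534 to 629) in Setd5+/- cells and 6.0 kb and 585 reads (539 to 634) in wild-type cells, in an island that held the promoter with 2 RBPJ cores and ran on into Pank4. H3K27ac was thin, with 2.4 and 2.8 kb and 55 and 72 reads. H3K4me1 covered 4.2 and 3.8 kb. By covered length as deposited, Hes5 and Hes6 were the members with more of it in Setd5+/- cells. Both lie on chromosomes that stood apart. On chromosomes 4 and 1, 16.5% and 37.3% of marked genes were higher for H3K4me1, against 5.32% on the 16 other autosomes. At Hes5 the difference of 0.4 kb turned to −0.4 kb with no flank and to −1.0 kb with a flank of 25 kb. By RPM Hes5 held 81.9 in Setd5+/- cells and 61.3 in wild-type cells, and Hes6 and Notch1 were also higher. A wild-type H3K27me3 island of 131 reads reached from −11.9 to −7.72 kb of the start, with 2.58 kb inside the window, and none was called in Setd5+/- cells. H3K36me3 covered 2.77 kb and 6.77 kb of the window, and all of it lay outside Hes5, over the pantothenate kinase family gene Pank4. On chromosome 4, 34.4% of marked genes were lower for H3K27me3 and 10.6% for H3K36me3.

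Hes6, a relative of Hes1 that acts against it and favours differentiation, was the member with the largest H3K27ac ratio. H3K27ac covered 6.2 kb in Setd5+/- cells and 2.4 kb in wild-type cells, with 165 reads (141 to 192) and 71 reads (55.5 to 89.6). H3K4me3 covered 4.8 and 3.4 kb, with 533 and 303 reads. Hes6 lies on chromosome 1, whose median gene was itself higher in Setd5+/- cells by 1.01 on the log2 scale for H3K27ac, relative to the 16 other autosomes. Relative to the median gene of chromosome 1, the log2 ratio of Hes6 was 0.60 for H3K27ac and 0.23 for H3K4me3. It was −0.55 for H3K4me1 and −0.29 for H3K36me3. For H3K27ac, 54.6% of 815 marked genes of chromosome 1 were higher by the same 2-fold rule, against 14.4% on the other autosomes. H3K36me2, which was higher for 96.3% of 626 marked genes of chromosome 1, covered 3.32 kb of the Hes6 window in Setd5+/- cells alone, outside the gene.

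Hey1 encodes a repressor related to the Hes proteins, and its window is shared with the predicted gene LOC115489673, which overlaps one end of it. H3K4me3 covered 6.2 kb in Setd5+/- cells and 5.4 kb in wild-type cells, with 707 and 732 reads. H3K27ac covered 2.0 and 4.2 kb, with 61 and 149 reads, in 2 islands of 38 and 23 reads in Setd5+/- cells and 3 islands of 31, 80 and 38 reads in wild-type cells. Inside the gene, 32.6% and 87.0% of the span carried H3K27ac. H3K4me1 covered 2.2 and 3.0 kb.

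**Figure D3:**
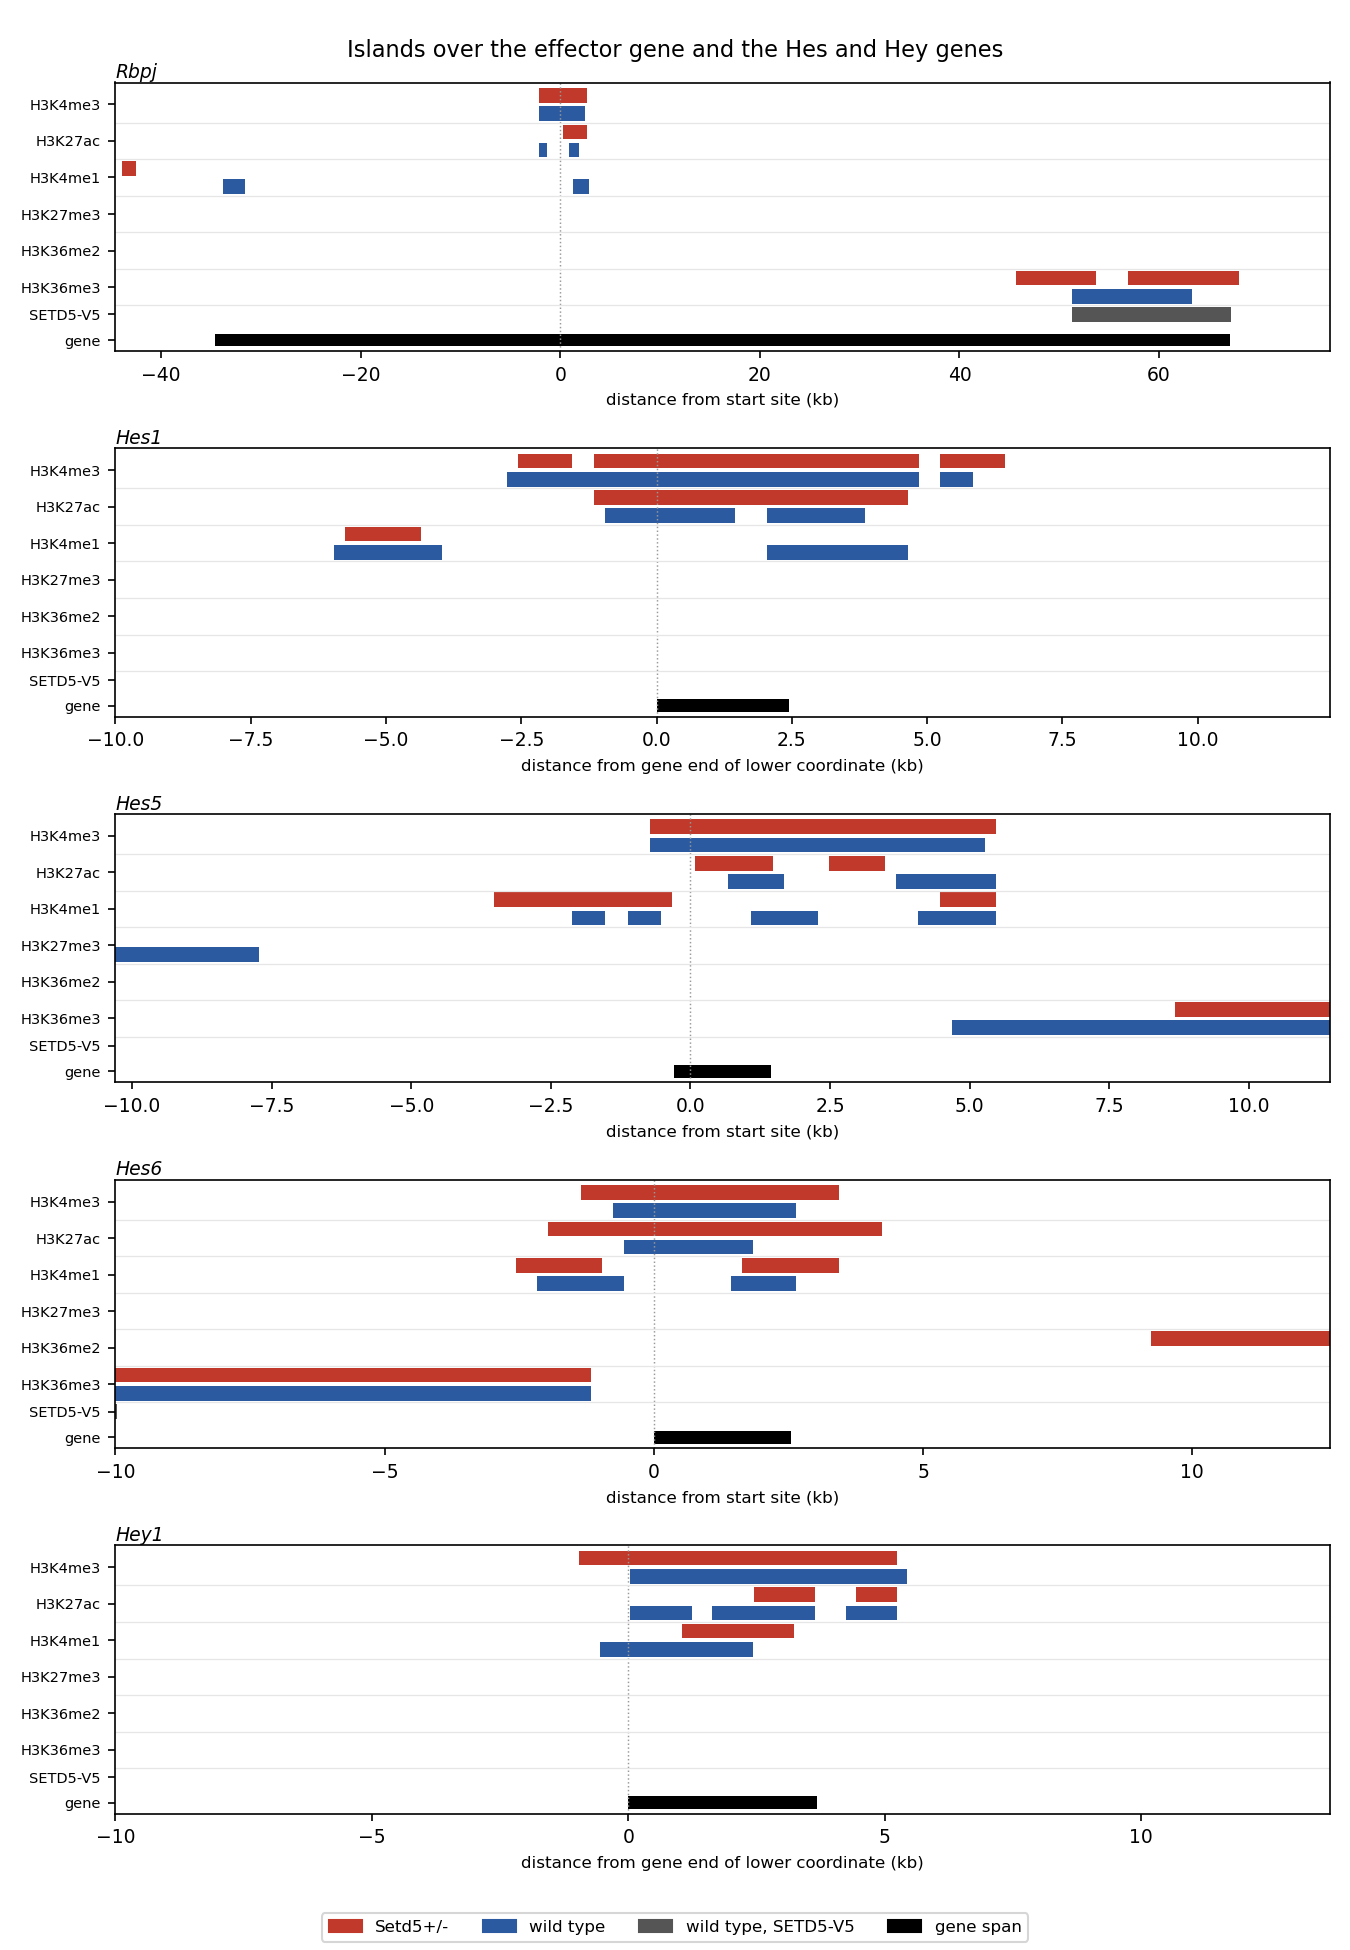
Islands around Rbpj, Hes1, Hes5, Hes6 and Hey1, by distance in kb from the start, or from the gene end of lower coordinate for Hes1 and Hey1, with the Setd5+/- row above the wild-type row for each mark. The H3K4me3 islands at Hes1, Hes5 and Rbpj nearly coincide, and the H3K27ac island at Hes6 is 6.2 kb in Setd5+/- cells and 2.4 kb in wild-type cells.

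A member was called higher or lower when its covered length differed by 2-fold or more, or when a single genotype had an island. For H3K4me3, 0 of 10 members were called higher in Setd5+/- cells, beside 3.8% of all marked genes, and 1 was called lower, Dll3, beside 4.53%. For H3K27ac, 1 of 9 was called higher, Hes6, beside 18.5%, and 2 were called lower, Dll1 and Hey1, beside 18.4%. For H3K4me1, 0 of 10 were called higher, beside 8.7%, and 3 were called lower, Dll3, Rbpj and Hes1, beside 49.8%. With so few members, these counts do not set them apart from all genes.

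Of 2 members with H3K27me3, 0 were called higher, beside 24.2%, and 1 was called lower, Hes5, beside 43.0%. Of 2 members with H3K36me2, 1 was called higher, Hes6, beside 51.1%, and 1 was called lower, Notch2, beside 36.6%. On the 16 other autosomes, where Notch2 lies, 61.2% of genes with H3K36me2 were called lower. For H3K36me3, 0 of 8 were called higher, beside 14.8%, and 1 was called lower, Hes5, beside 11.5%. The calls at Dll1 for H3K27ac, Dll3 for H3K4me1 and Notch2 for H3K36me2 were the 3 made under all 8 alternative settings run. Not every setting could lose a call. A 1.5-fold threshold keeps every 2-fold call. Rescaling the reads keeps any call where 1 genotype had no island, as for H3K4me1 at Dll3 and H3K36me2 at Notch2. The call at Dll3 for H3K4me3 was lost in 3 of the 8 settings, and those at Rbpj and Hes1 for H3K4me1 in 4 each. That at Hey1 for H3K27ac was lost in 2. The Hes6 call for H3K27ac was lost with no flank. There 100% of the gene was covered in Setd5+/- cells and 71.9% in wild-type cells.

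**Figure D4:**
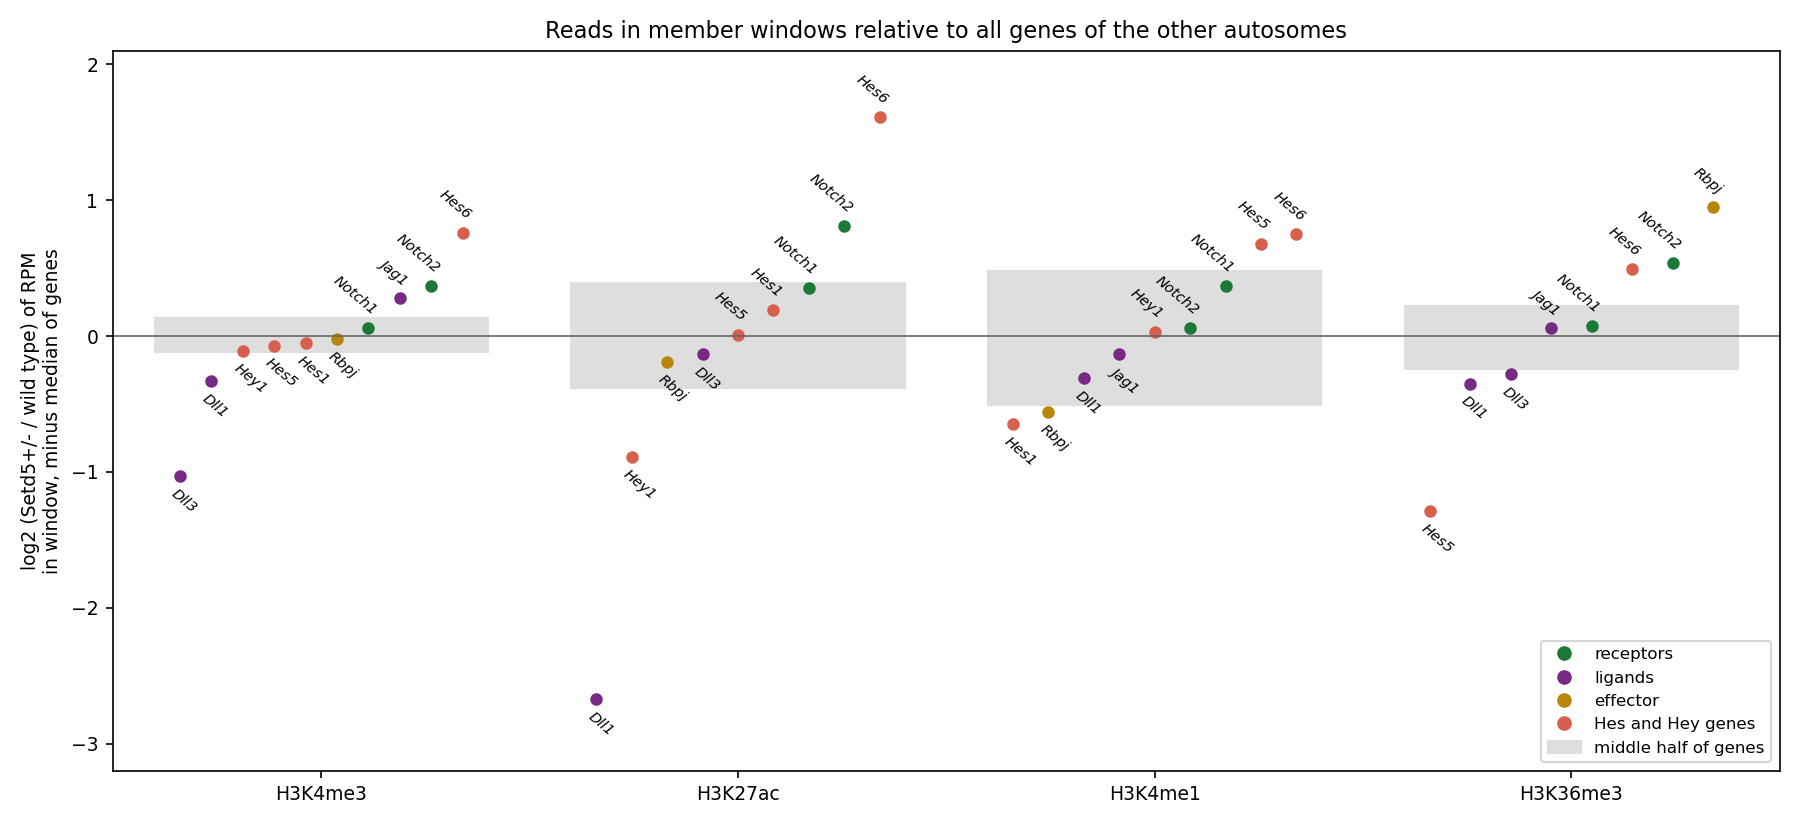
Log2 ratio of RPM in the window, Setd5+/- over wild type, for each member with islands in both genotypes, relative to the median gene of the 16 other autosomes, with grey boxes from the lower to the upper quartile of those genes. Dll1 stands at −2.67 for H3K27ac and Hes6 at 1.61, while the H3K4me3 values run from −1.03 at Dll3 to 0.76 at Hes6. Hes6 lies on chromosome 1, whose median gene stands at 1.01 for H3K27ac.

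By reads, the members as a list lay at the middle of the genome. Relative to the median gene of the 16 other autosomes, the median log2 ratio of the members was −0.04 for H3K4me3 over 10 genes, 0.01 for H3K27ac over 9, 0.03 for H3K4me1 over 9 and 0.07 for H3K36me3 over 8. The spread was wide for H3K27ac, from −2.67 at Dll1 and −0.89 at Hey1 to 0.81 at Notch2 and 1.61 at Hes6. On this scale the median gene of chromosome 1, where Hes6 lies, stood at 1.01. The spread was narrow for H3K4me3, where 8 of the 10 members lay between −0.33 at Dll1 and 0.37 at Notch2. All genes of the 16 other autosomes also spread more widely for H3K27ac. Before the median was subtracted, their log2 quartiles were −0.61 and 0.16 for H3K27ac, against −0.19 and 0.06 for H3K4me3. Over the 10 windows together, 90.1% of the wild-type H3K4me3 length stayed covered in Setd5+/- cells, against 85.5% of the whole list. For H3K27ac it was 68.9% against 62.1%, for H3K4me1 54.7% against 45.1% and for H3K36me3 92.7% against 80.7%. For H3K27me3 it was 0.0% against 40.0%, where wild-type islands of 2 members counted. For H3K36me2 it was 0.0% against 32.7%, where that of Notch2 alone did. On the 16 other autosomes, where Notch2 lies, 21.5% of the H3K36me2 length was kept. The values of the members for these 2 marks rest on too few islands to give a direction.

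The roles differed in the share of window covered. For H3K27ac the receptors had 15.4% of their 223 kb covered in Setd5+/- cells and 11.0% in wild-type cells. The ligands had 3.53% and 9.02% of 113 kb, Rbpj had 1.97% and 1.48% of 122 kb, and the Hes/Hey genes had 18.1% and 15.0% of 90.4 kb. By covered length the ligands were the group with less H3K27ac in Setd5+/- cells, though by RPM Rbpj was lower too, with 33.4 and 44.7, and with no flank the Hes/Hey genes had 7.57 and 7.65 kb. Dll1 made up all of the ligand difference, since Dll3 had 2.58 kb in both genotypes and Jag1 had none. Within the Hes/Hey genes the signs were mixed, with 3.8 kb at Hes6 on chromosome 1, 1.6 kb at Hes1, −0.4 kb at Hes5 and −2.2 kb at Hey1. All genes together had 3.07% and 2.84% of their windows covered.

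For H3K4me3 the receptors had 10.5% in Setd5+/- cells and 6.64% in wild-type cells, the ligands 16.8% and 17.9%, Rbpj 3.95% and 3.78% and the Hes/Hey genes 28.1% and 25.4%, beside 3.98% and 3.82% for all genes. The receptor difference of 8.6 kb shrank to 3.4 kb at equal covered length and to 1.8 kb without the 25% of islands with the fewest reads per kb. The Hes/Hey genes are short, so most of each of their windows is flank. By covered length as deposited, H3K4me1 was lower in Setd5+/- cells for every role, with 17.7% and 21.0% for receptors, 7.62% and 14.9% for ligands, 1.15% and 3.12% for Rbpj and 12.4% and 15.7% for Hes/Hey genes. The same held for all genes, with 2.97% and 4.32%. With the lists at equal covered length on the 16 other autosomes, the ligands alone stayed lower as a group. They had 8.6 kb in Setd5+/- cells and 13.6 kb in wild-type cells. The receptors then had 39.4 and 38.4 kb, Rbpj 1.4 and 0 kb and the Hes/Hey genes 11.2 and 11.0 kb. Within the Hes/Hey genes the difference was −1.2 kb at Hes1 and −0.8 kb at Hey1. It was 1.6 kb at Hes5 on chromosome 4 and 0.6 kb at Hes6 on chromosome 1. By RPM the Hes/Hey genes held 218 and 216. H3K27ac outside H3K4me3 was found mainly at the receptors, with 14.2 kb in Setd5+/- cells and 12.8 kb in wild-type cells, against 1.4 and 0.2 kb at the Hes/Hey genes. Most of it lay in Notch1, with 12.2 and 12.8 kb.

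**Figure D5:**
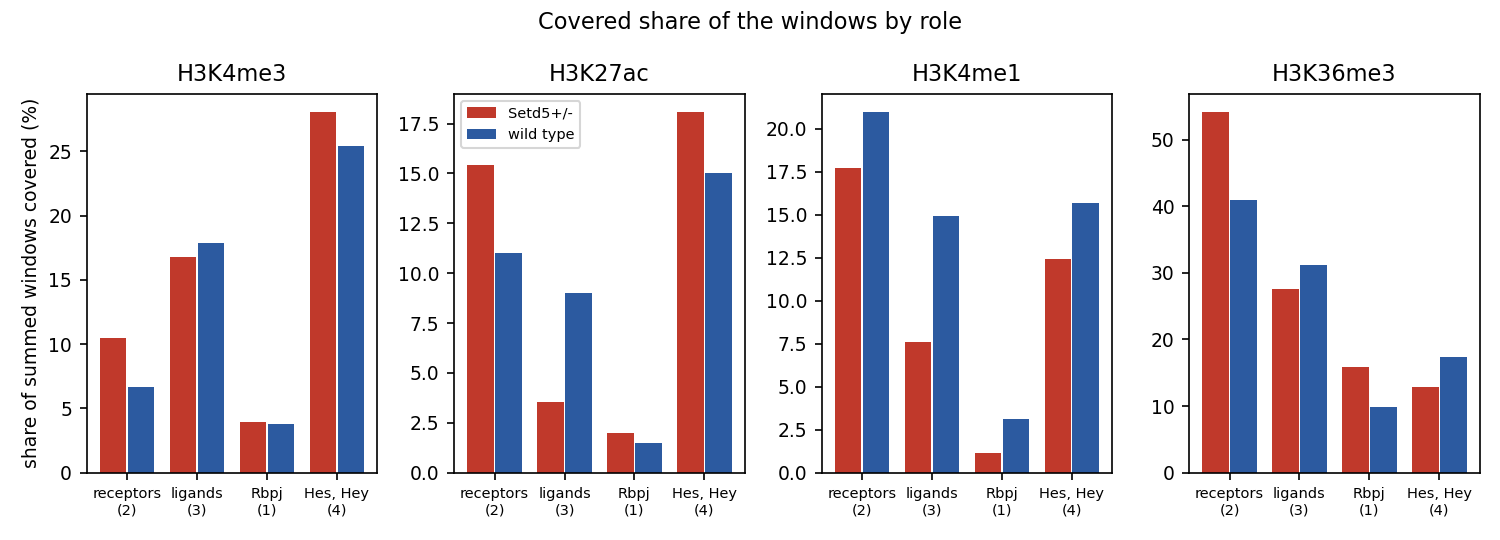
Share of the window covered by H3K4me3, H3K27ac, H3K4me1 and H3K36me3, in percent, for receptors, ligands, Rbpj and Hes/Hey genes, with Setd5+/- bars beside wild-type bars. Ligands have 3.53% H3K27ac in Setd5+/- cells and 9.02% in wild-type cells, while receptors have 15.4% and 11.0%.

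H3K36me3 lay over the bodies of the receptors, Dll1, Jag1 and Rbpj. Over Notch1 it covered 92.3% of the gene in Setd5+/- cells and 81.9% in wild-type cells, as 1 island of 953 reads and as 2 islands of 551 and 146 reads. Over Notch2 it covered 57.3% and 39.2%, and the island of 24.0 kb and 354 reads (318 to 393) from 54.5 to 78.5 kb after the start was called in Setd5+/- cells alone. Over Dll1 it covered 73.6% and 90.3%, over Jag1 50.2% and 52.5%, and over Rbpj 17.9% and 11.8%. In RPM the 2 receptors held 268 and 282 at Notch1, and 357 and 272 at Notch2. The Dll1 islands held 145 and 142 reads. The Setd5+/- H3K36me3 list was deeper, with 3561439 island reads against 2468530 in wild-type cells. Its median was 16.2 reads per kb against 11.8, and the part of this in the differences of length was not tested. The bodies of Dll3 and all 4 Hes/Hey genes had no H3K36me3 island in either genotype, and the islands in the windows of Dll3, Hes5 and Hes6 lay over Timm50, Pank4 and Per2.

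SETD5-V5 islands in wild-type cells lay in 3 member bodies, Notch1, Jag1 and Rbpj, each over the part of the gene away from its start. At Notch1 the island was 26.4 kb with 442 reads (402 to 485) and covered 57.5% of the gene, from 19.0 to 45.4 kb after the start. At Jag1 it was 8.8 kb with 147 reads and covered 25.1% of the gene, and at Rbpj it was 16.0 kb with 245 reads and covered 15.6%. Wild-type H3K36me3 covered 100% of the V5 length at Notch1, 100% at Jag1 and 75.0% at Rbpj, and Setd5+/- H3K36me3 covered 100%, 100% and 80.0%. None of the V5 length lay in wild-type H3K4me3. The shares over the whole V5 list are not given here, so these values do not set the 3 genes apart. At Hes6 the window was touched over 0.038 kb by an island over the clock gene Per2. Notch2, which had 53.6 kb of H3K36me3 in wild-type cells, had no V5 island.

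The rest of the pathway was followed through 50 further genes, all of which were found. H3K4me3 lay at 43 starts in Setd5+/- cells and 44 in wild-type cells, beside 58.6% and 60.2% of all genes. H3K27ac lay at 30 and 27, beside 35.9% and 37.9%, H3K4me1 at 9 and 25, beside 16.6% and 34.8%, and H3K27me3 at 5 and 6, beside 6.18% and 7.94%. By the window call, 2 of 46 genes were higher and 1 was lower for H3K4me3, beside 3.8% and 4.53% of all genes. For H3K27ac 10 of 38 were higher and 5 were lower, beside 18.5% and 18.4%, and for H3K4me1 3 of 37 were higher and 17 were lower, beside 8.7% and 49.8%. For H3K27me3, 1 of 10 was higher and 6 were lower, beside 24.2% and 43.0%. For H3K36me2, 2 of 5 were higher and 3 were lower, beside 51.1% and 36.6%, and for H3K36me3, 3 of 29 were higher and 2 were lower, beside 14.8% and 11.5%. H3K27ac lay at the start in Setd5+/- cells alone at Dner and Psen2, both on chromosome 1, and at Rfng, Maml3 and Nrarp. It lay there in wild-type cells alone at Aph1b and Dtx3. These genes are named because of this difference. The share of all genes with H3K27ac at the start in 1 genotype alone is not given here, so the names do not set the list apart.

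Maml3, which encodes a coactivator of the Notch complex, had 6.6 kb of H3K27ac in Setd5+/- cells and 1.0 kb in wild-type cells, with 144 and 28 reads. Its H3K27me3 went the other way, with 9.8 kb and 292 reads in Setd5+/- cells and 30.0 kb and 1684 reads in wild-type cells. Nrarp, a feedback inhibitor and Notch target, had 3.8 kb and 67 reads of H3K27ac in Setd5+/- cells and 1.2 kb and 31 reads in wild-type cells. Aph1b, a subunit of the gamma-secretase that cleaves Notch, had no H3K27ac island in Setd5+/- cells, and 2.0 kb with 45 reads in wild-type cells.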

How the data were processed

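The series holds 16 samples, of which 13 gave island lists and 3 inputs were not analysed here. The submitters' processing notes name FastQC, Bowtie2 2.2.3 and SICER 1.1, with GRCm38 (mm10) as the build. For 5 lists, those of H3K36me2, H3K36me3 and SETD5-V5, the SICER window was 800 bp, the gap 2400 bp and the FDR 0.01, per the file headers. The other 8 name no settings, and their widths are multiples of 200 bp. The whole number that the authors deposited beside each island was read as counts of reads per island, from the values, since no header names it. Whether inputs served as controls is not given in the sources used here. These choices set how long an island is and whether a weak one is listed.

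Gene spans came from the RefSeq annotation of GRCm38.p6, and strands and starts from its promoter table. An island counted with an overlap of 1 bp, and reads of an island that ran past a window were scaled by the share of its length inside. A log2 ratio of RPM (reads per 1000000 island reads) was taken where both genotypes had islands, with the median gene of the 16 autosomes other than 1, 4 and 15 as its zero. Genes named are the 10 members, neighbours under an island of a window, genes of a 50-gene Notch list marked at the start in 1 genotype only, and the 3 genes of most similar coverage. Members, lists and rules were chosen with earlier results of these data known. The coverage was checked against a direct count on the deposited lists. The calls were checked by removing all wild-type islands of picked windows, which tests the loss of every island and not a 2-fold change. Alternatives varied the flank, the start distance, the fold, the overlap, the island threshold, the covered length and the scaling. Equal covered length refers to the 16 other autosomes. The list longer there lost its islands with the fewest reads per kb until both matched there, so whole lists could still differ. Python 3.11.15, numpy 2.4.6, pandas 2.3.3, scipy 1.17.1 and matplotlib 3.10.9 were used.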

Additional observations from a re-analysis of the deposited data

How the results depend on the processing

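Of 187 counts of members recomputed under 11 alternative settings, 147 stayed within 1.5 times the count reported and 40 did not. Counts below are of members, and "lower" and "higher" are calls in Setd5+/- cells. With no flank, 1 member had H3K27me3 in wild type, 0 had H3K36me2 in Setd5+/- cells, and 5 and 5 had H3K36me3 in Setd5+/- and wild-type cells. Calls were then 0 lower for H3K4me3, 2 higher for H3K27ac (Notch2 and Dll3), 0 lower for H3K27me3, 0 higher for H3K36me2 and 0 lower for H3K36me3. With a flank of 25 kb, 2 had H3K27me3 in Setd5+/- cells, and calls were 0 lower for H3K4me3, 1 lower for H3K27ac, 1 higher for H3K4me1, 2 lower for H3K27me3 and 0 lower for H3K36me3. Without the 25% of islands with the fewest reads per kb, 0 had H3K27me3 in Setd5+/- cells, and calls were 0 lower for H3K4me3, 2 higher and 4 lower for H3K27ac, and 2 lower for H3K27me3.

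With 50% of an island required inside the window, 0 had H3K36me2 in Setd5+/- cells, with 0 higher for H3K36me2 and 0 lower for H3K36me3. At equal covered length, 1 had H3K27me3 in wild type, and calls were 1 higher and 1 lower for H3K4me1 and 1 higher for H3K27me3, while the Rbpj H3K4me1 difference turned to 1.4 kb more in Setd5+/- cells. By RPM, 1 was lower for H3K4me1. Scaled to the other autosomes, 1 was lower for H3K27ac and 1 for H3K4me1. At a threshold of 1.5-fold, 3 were higher for H3K4me3, 2 higher for H3K27ac, 5 lower for H3K4me1 and 1 higher for H3K36me3. With an island over the start base, H3K27ac lay at 5 Setd5+/- and 4 wild-type starts and H3K4me1 at 0 and 4. Within 5 kb of the start, H3K36me3 lay at 4 and 5. The cause of these shifts was not tested. Reads outside islands are unknown, so a stretch missing from a list cannot be told apart from one just short of being called.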

Other observations

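The genes whose coverage over all 13 lists was most like that of a member were found by Euclidean distance between covered percentages of the window, among genes whose window length lay within 20%. Nothing on shared function or control follows from such a match. The closest match of any member was that of Hey1 with LOC115489673, at a distance of 1.72 percentage points, and the windows of these 2 genes overlap. Rbpj was next, with Prdm2 at 3.1, followed by Dll3 with Mutyh at 5.95 and Hes1 with Gm13289 at 6.33. Jag1 lay 11.8 points from Rnf19b and Notch2 14.4 from Tmem131l. Hes5 lay 15.9 points from 4930563E22Rik, Dll1 20.8 from Acadvl and Hes6 20.9 from Mrpl12. Notch1 had the most distant match, St3gal6 at 21.5 points among 2801 candidates.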
